A study of Homo sapiens with 12 samples.

Results

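The 30 genes described here are known direct targets of p53 (MDM2, PPM1D, CCNG1, FBXO22, CDKN1A, BTG2, GADD45A, PLK2, PLK3, BAX, BBC3, PMAIP1, AEN, TRIAP1, PHLDA3, FAS, TNFRSF10B, EDA2R, XPC, DDB2, POLH, RRM2B, TP53I3, FDXR, SESN1, TIGAR, TP53INP1, SPATA18, ZMAT3 and RPS27L), followed in 12 mRNA libraries of 2 colorectal carcinoma lines. They were chosen by symbol, and each matched 1 of the 63036 rows of the expression table by its Ensembl identifier. The 4 groups, of 3 libraries each, were HCT15 cells overexpressing RNF26, HCT15 control cells, HCT116 cells overexpressing RNF26 and HCT116 control cells. RNF26 is a RING-type ubiquitin ligase that sits in the membrane of the endoplasmic reticulum. The labels do not state which vector carried RNF26, what the control cells carried, whether the cells were clones or pools, or whether the libraries were separate cultures. The p values therefore measure the spread between libraries, which may be technical.

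p53 is a transcription factor that is kept low in unstressed cells by the ubiquitin ligase MDM2, itself a p53 target, and that accumulates after DNA damage. It binds response elements made of paired decamers and switches on genes that stop the cell cycle, repair DNA, adjust metabolism or start apoptosis. The lines were set against each other first, and the RNF26 and control cells of each line afterwards. The lines differ in many genes, and what any one of these contributes cannot be told apart.

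Promoter windows of 24 of the 30 genes were found in RefSeq (GRCh38.p14; 250 bases before to 50 bases after a start site). They are shown because p53 acts through such letters, and they introduce the genes whose values follow. A window was searched for the p53 half-site consensus, a decamer that reads the same on both strands, and for the full element, which is a pair of such decamers with a spacer of 0 to 13 bases and so overlaps the half-sites. A half-site without mismatch stood in the windows of 7 of the 24 genes (29.2%), against 8.05% of the 27281 other genes and 6.63% of all 35116 windows. A gene counted if any of its windows held a half-site, and the 24 genes had 1 to 4 windows each. Because the 24 are known p53 targets, their share is a description and no test. A full element without mismatch stood in 1 of the 24 genes, DDB2, against 0.0330% of the other genes. One with up to 2 mismatches stood in 7 of the 24 genes (29.2%), against 9.51% of the other genes. The sequences run 5′ to 3′ on the strand of the gene, and capitals mark the element. In the first 4 sequences the capitals are the best full element, which has 0 mismatches in DDB2 and 2 in MDM2, FAS and AEN. In the other 4 they are a half-site without mismatch.
DDB2, chr11:47214975-47215003 (+): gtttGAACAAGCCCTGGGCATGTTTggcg
MDM2, chr12:68808883-68808982 (+): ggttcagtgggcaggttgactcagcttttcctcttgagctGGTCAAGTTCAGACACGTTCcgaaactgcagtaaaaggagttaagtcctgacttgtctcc
FAS, chr10:88991305-88991332 (+): tcctGGACAAGCCCTGACAAGCCAagcc
AEN, chr15:88621302-88621329 (+): agccGGGCTTGCCCGGGCATGTGGgagc
RPS27L, chr15:63157517-63157546 (-): ggcctagagcAGACAAGCCCgccccgccgc
FDXR, chr17:74872986-74873015 (-): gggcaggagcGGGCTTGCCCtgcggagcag
PLK2, chr5:58460199-58460228 (-): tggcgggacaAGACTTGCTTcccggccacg
SESN1, chr6:109009018-109009047 (-): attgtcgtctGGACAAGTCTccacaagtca
The DDB2 element starts 6 bases after a start site, and the MDM2 element lies 94 bases before one, in the internal promoter through which p53 is known to drive MDM2. No half-site was in the CDKN1A window, whose known p53 elements lie further upstream. A match is a description of these letters and not a measured binding site.

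RNF26, the check of the labels, averaged 54.2 ± 0.562 TPM (a level scaled for transcript length and library size) in HCT15 RNF26 cells and 27.0 ± 0.762 TPM in HCT15 controls (SD, n = 3 each). It averaged 295.8 ± 39.4 TPM in HCT116 RNF26 cells and 16.8 ± 1.44 TPM in HCT116 controls. TPM keeps no read depth, so the depth behind the values is unknown. Mitochondrial transcripts took 18.4% to 19.2% of TPM in HCT15 RNF26 libraries, 16.4% to 25.9% in HCT15 controls and 20.2% to 22.5% in the HCT116 libraries. Ribosomal protein genes took 26.3% to 27.5% in HCT15 RNF26 libraries, 17.5% to 24.3% in HCT15 controls and 21.3% to 22.1% in HCT116. HCT15 control replicate 3 stood apart in both shares, with the highest mitochondrial and the lowest ribosomal protein share of the 12. A list of 10 colon epithelial markers summed to 3884 to 4860 TPM in HCT15 and 2198 to 2573 TPM in HCT116 libraries, while the enterocyte gene VIL1 averaged only 0.457 TPM in HCT116 controls. The keratins KRT8 and KRT18 made up most of that sum in HCT15 controls, at 2057 and 1821 TPM on average. Of the 10 markers 7 reached 1 TPM in at least 3 libraries. Of 12 fibroblast, endothelial and blood cell markers, 3 were listed at 0 in every library, COL1A1 reached 2.77 TPM and no other exceeded 0.21 TPM.

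MDM4, which restrains p53 without degrading it, averaged 8.61 ± 1.53 TPM in HCT15 controls and 7.78 ± 0.595 TPM in HCT116 controls and did not pass the test (log2 fold change 0.12, limma adjusted p = 0.505).

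Most of the p53 targets were lower in HCT15 than in HCT116, while BBC3, GADD45A, TNFRSF10B and FAS were higher. With TP53INP1 set aside, CDKN1A, PLK2, RPS27L and SESN1 had the lowest log2 fold changes between the controls. A total of 28 of the 30 reached 1 TPM in at least 3 libraries and were tested, of which TP53INP1 did so in HCT116 libraries alone. Between the controls 18 of the 28 were lower in HCT15 (64.3%), where 26.0% of all 15584 tested genes were lower by the same rule (limma, adjusted p under 0.05). Another 7 were higher (25%), against 43.6% of all tested genes. Where 1 TPM was asked for in at least 3 libraries of each line, a filter chosen after the data were seen, 17 of 27 targets were lower and 7 higher, beside 23.5% and 44.3% of 12310 genes, with medians of -0.75 over the 27 and 0.22 over these genes. The median log2 fold change of the 28 was -0.84, beside 0.22 over all tested genes. Between the RNF26 cells of each line, which share no library with the controls, 17 of 28 were lower in HCT15 (60.7%; 33.8% of all tested genes) and 7 were higher (34.1% of all tested genes). In both comparisons 17 targets were lower, 6 were higher and 0 changed direction, while of all 15584 tested genes 3626 were lower in both, 4786 higher in both and 236 called in opposite directions. With median-ratio scaling, which moved the median of all genes to 0.07, the control comparison had 6 higher and 18 lower targets, with quantile normalization 7 and 18, and with a correction for GC and length 7 and 19. The split of all tested genes, 6790 higher and 4046 lower, became 5774 and 4985, 5473 and 5243, and 5395 and 5094 under these settings. In such bulk RNA, fewer cells that express a gene and less RNA per cell cannot be told apart.

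**Figure D1:**
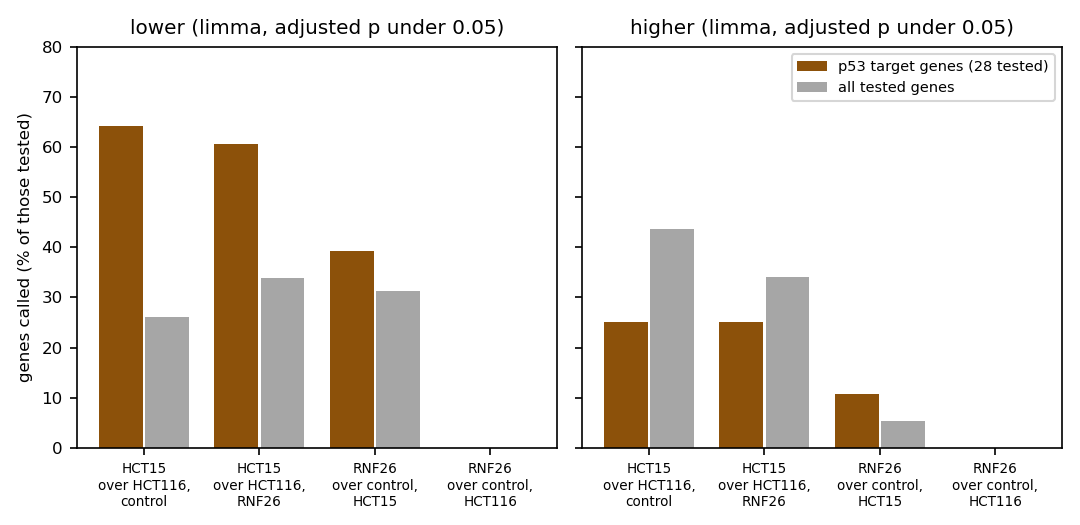
Bars give the percentage of tested genes called lower (left panel) or higher (right panel) by limma with adjusted p under 0.05, for the 28 tested p53 targets and for all 15584 tested genes, in each of 4 comparisons. The p53 targets were lower in HCT15 in 64.3% (control cells) and 60.7% (RNF26 cells) of cases, above the 26.0% and 33.8% of all genes, and none was called between the cells of HCT116.

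**Figure D2:**
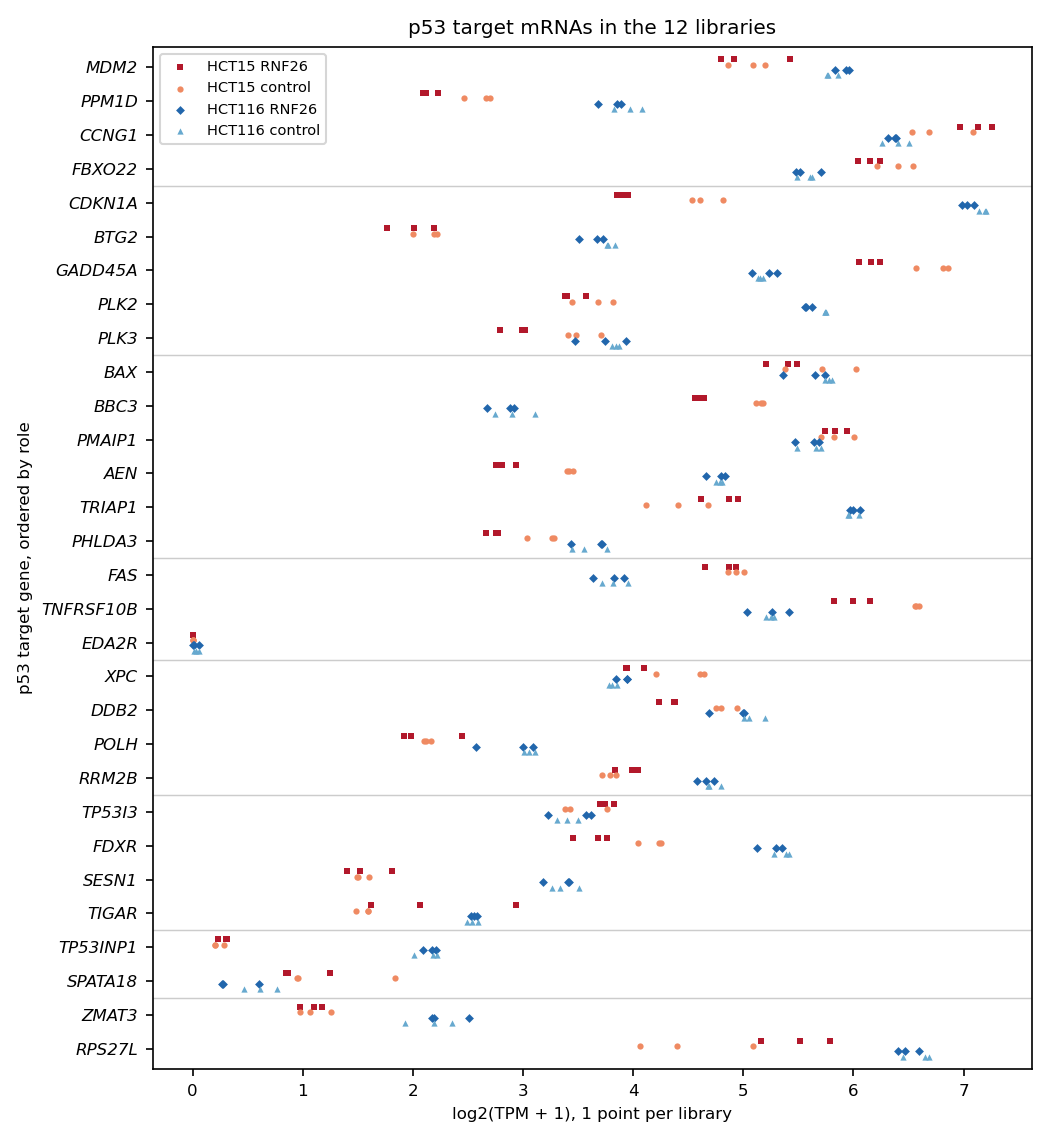
Each point is the level of 1 gene in 1 library, on a log2(TPM + 1) axis, for the 30 p53 targets ordered by role, with HCT15 in red tones and HCT116 in blue tones. CDKN1A, PLK2, TP53INP1 and RPS27L lie far lower in HCT15 libraries, BBC3, GADD45A and TNFRSF10B lie higher, and EDA2R is near 0 in all.

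Of the 5 cell cycle genes 4 were lower in HCT15 controls and 1 was higher. CDKN1A (chr6:36676460-36687339, GRCh38) encodes p21, the cyclin-dependent kinase inhibitor through which p53 arrests cells. It was at 23.4, 27.2 and 22.1 TPM in HCT15 controls, against 145.45, 146.45 and 139.90 TPM in HCT116 controls. The groups did not overlap, the HCT15 mean was 5.93 times lower, and the log2 fold change was -2.53 ± 0.07 (SE; limma, adjusted p = 1.23e-10). In RNF26 cells CDKN1A averaged 13.9 ± 0.490 TPM in HCT15 and 130.4 ± 4.79 TPM in HCT116, a log2 fold change of -3.14. PLK2, a kinase of the centrosome cycle, was at 11.8, 9.88 and 13.1 TPM in HCT15 controls, against 52.45, 52.8 and 52.7 TPM in HCT116 controls. Its fold change was -2.10 ± 0.09 (SE; limma, adjusted p = 3.38e-09). BTG2, an antiproliferative partner of the deadenylase complex, averaged 3.40 ± 0.360 TPM in HCT15 controls and 12.8 ± 0.361 TPM in HCT116 controls, a log2 fold change of -1.65. PLK3, a stress-responsive kinase, had a small difference of -0.31 between the controls (limma, adjusted p = 0.0404) and one of -0.78 between the RNF26 cells. Its control call was lost without any single one of 6 libraries (all HCT116 controls, HCT116 RNF26 replicate 1 and HCT15 control replicates 2 and 3), with adjusted p up to 0.126. The same PLK3 call was lost with no filter and with a replicate block (limma, adjusted p of 0.0760 and 0.0545).

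GADD45A, a stress gene that binds PCNA and slows the cell cycle, went the other way. It was at 115, 111 and 93.9 TPM in HCT15 controls, against 34.6, 35.3 and 34.1 TPM in HCT116 controls. Every HCT15 control lay above every HCT116 control, with a log2 fold change of 1.59 ± 0.09 (SE; limma, adjusted p = 2.51e-08).

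The feedback genes split evenly. MDM2 was at 28.05, 35.7 and 33.1 TPM in HCT15 controls, against 53.7, 53.2 and 57.1 TPM in HCT116 controls. It was lower in every HCT15 control, by -0.75 ± 0.14 on the log2 scale (SE; limma, adjusted p = 0.000607). PPM1D, the phosphatase WIP1 that reverses p53 phosphorylation, averaged 5.13 ± 0.522 TPM in HCT15 controls and 14.6 ± 1.34 TPM in HCT116 controls, a log2 fold change of -1.35. FBXO22, a ubiquitin ligase adaptor that acts on methylated p53, averaged 82.99 ± 9.57 TPM in HCT15 controls and 46.5 ± 2.40 TPM in HCT116 controls, a fold change of 0.82. CCNG1, cyclin G1, which guides a phosphatase to MDM2, averaged 109 ± 22.6 TPM in HCT15 controls and 83.1 ± 7.21 TPM in HCT116 controls. Its difference of 0.38 (limma, adjusted p = 0.0204) was not called without HCT116 control replicate 1 or HCT15 control replicate 2 (0.31 and 0.22, adjusted p of 0.0797 and 0.0652), nor with median-ratio scaling or in a fit of those 2 groups alone.

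Among the genes of mitochondrial apoptosis, BBC3 stood out as higher in HCT15. BBC3, the BH3-only protein PUMA, was at 34.8, 35.2 and 33.6 TPM in HCT15 controls, against 5.71, 7.6 and 6.45 TPM in HCT116 controls. The HCT15 mean was 5.24 times the HCT116 mean, with no overlap and a log2 fold change of 2.24 ± 0.10 (SE; limma, adjusted p = 3.18e-09). AEN, a p53-induced exonuclease, was at 9.97, 9.53 and 9.70 TPM in HCT15 controls, against 26.7, 26.9 and 25.9 TPM in HCT116 controls. It was lower in each HCT15 control (fold change -1.36 ± 0.07, SE; limma, adjusted p = 1.77e-08). TRIAP1, a small mitochondrial survival protein, averaged 20.4 ± 4.16 TPM in HCT15 controls and 62.5 ± 2.39 TPM in HCT116 controls, a fold change of -1.58. PHLDA3, which blocks AKT at the membrane, differed less, by -0.40 between the controls and by -0.89 between the RNF26 cells.

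BAX, the pore-forming effector of mitochondrial apoptosis, did not pass the test in either comparison. It averaged 52.0 ± 11.6 TPM in HCT15 controls and 53.9 ± 1.23 TPM in HCT116 controls, with a log2 interval of -0.40 to 0.25 (95%). Between the controls BAX was called lower in HCT15 in 1 of 24 alternatives, the GC and length correction (-0.32, limma, adjusted p = 0.0395). PMAIP1, the BH3-only protein NOXA, averaged 56.6 ± 6.05 TPM in HCT15 controls and 48.3 ± 3.84 TPM in HCT116 controls. Its difference of 0.22 missed the threshold between the controls (limma, adjusted p = 0.0562) and that of 0.24 passed it between the RNF26 cells (adjusted p = 0.0428). The control difference was called without HCT15 control replicate 3 or HCT116 RNF26 replicate 3 (adjusted p of 0.0219 and 0.04996), and the one in RNF26 cells was lost without any single one of 6 libraries (HCT116 control 2, HCT116 RNF26 1 and 3, HCT15 control 1, HCT15 RNF26 1 and 2), with adjusted p up to 0.156. A replicate block also gave the control call (limma, adjusted p = 0.0344). The call in RNF26 cells was also lost with no filter, the GC and length correction or eBayes without trend (limma, adjusted p of 0.0790, 0.124 and 0.0595).

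Both measured death receptors were higher in HCT15. TNFRSF10B, the TRAIL receptor DR5, was at 93.05, 95.6 and 93.9 TPM in HCT15 controls, against 37.8, 36.0 and 37.2 TPM in HCT116 controls. The groups were far apart, with a log2 fold change of 1.33 ± 0.10 (SE; limma, adjusted p = 3.45e-07). FAS, the receptor of FAS ligand, averaged 29.6 ± 1.495 TPM in HCT15 controls and 13.2 ± 1.18 TPM in HCT116 controls, a fold change of 1.11. EDA2R, the ectodysplasin receptor XEDAR, was listed at 0 in every HCT15 library and at 0.04 TPM or less in HCT116, and was not tested.

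Of the DNA repair genes 3 were lower in HCT15 and 1 was higher. RRM2B, the p53-induced subunit of ribonucleotide reductase, averaged 12.8 ± 0.623 TPM in HCT15 controls and 25.4 ± 1.28 TPM in HCT116 controls, a log2 fold change of -0.94. POLH, the translesion polymerase eta, averaged 3.37 ± 0.0889 TPM in HCT15 controls and 7.33 ± 0.3001 TPM in HCT116 controls, a fold change of -0.93. XPC, which detects bulky lesions in nucleotide excision repair, averaged 21.6 ± 3.58 TPM in HCT15 controls and 13.1 ± 0.352 TPM in HCT116 controls. Its difference was 0.67 between the controls and 0.09 between the RNF26 cells, where it did not pass (limma, adjusted p = 0.496). DDB2, the ultraviolet damage sensor whose promoter holds the complete element, was only slightly lower in HCT15 controls, at 27.5 ± 1.96 TPM against 33.0 ± 2.44 TPM in HCT116 controls. That difference of -0.25 (limma, adjusted p = 0.0385) was not called without HCT116 control replicates 1 or 2 or HCT15 control replicates 1 or 2 (adjusted p up to 0.142), nor with no filter (adjusted p = 0.0690). Between the RNF26 cells DDB2 differed by -0.57.

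The redox and metabolic targets were lower in HCT15 or did not pass. SESN1, sestrin 1, which restrains mTORC1, was at 2.03, 1.82 and 1.83 TPM in HCT15 controls, against 8.60, 9.09 and 10.35 TPM in HCT116 controls. It was lower in each HCT15 control, by -1.84 ± 0.12 on the log2 scale (SE; limma, adjusted p = 1.13e-07). FDXR, a mitochondrial ferredoxin reductase, averaged 17.1 ± 1.46 TPM in HCT15 controls and 40.1 ± 1.96 TPM in HCT116 controls, a fold change of -1.18. TIGAR, a fructose bisphosphatase that lowers glycolytic flux, averaged 1.94 ± 0.121 TPM in HCT15 controls and 4.83 ± 0.196 TPM in HCT116 controls, a fold change of -0.99. TP53I3, the quinone oxidoreductase PIG3, averaged 10.6 ± 1.72 TPM in HCT15 controls and 9.61 ± 0.706 TPM in HCT116 controls, with a log2 interval of -0.16 to 0.39 (95%). Between the RNF26 cells it differed by 0.29 (limma, adjusted p = 0.0630) and was called without HCT116 RNF26 replicate 3 or HCT15 control replicate 2 (adjusted p up to 0.0407). There TP53I3 was also called with median-ratio scaling (0.33), without mitochondrial and ribosomal protein genes (0.37) and with the GC and length correction (0.35). The adjusted p values of these were 0.0453, 0.0278 and 0.0335 (limma).

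TP53INP1, a promoter of autophagy and p53 activity, was under 1 TPM in every HCT15 library. It was at 0.22, 0.15 and 0.15 TPM in HCT15 controls, against 3.02, 3.54 and 3.65 TPM in HCT116 controls. It passed the filter on low values through the HCT116 libraries alone, so that a difference was built into its being tested. The mean was 19.6 times lower in HCT15, and the log2 fold change of -1.91 (limma, adjusted p = 1.63e-08) understates this, since it was -3.69 with a pseudocount of 0.1 and -0.70 with one of 5. SPATA18, a protein of mitochondrial quality control, was at 0.93, 0.94 and 2.58 TPM in HCT15 controls, against 0.70, 0.53 and 0.38 TPM in HCT116 controls, and did not reach the filter. ZMAT3, a zinc finger protein that regulates splicing, averaged 1.15 ± 0.221 TPM in HCT15 controls and 3.497 ± 0.663 TPM in HCT116 controls, a log2 fold change of -1.06. RPS27L, a ribosomal protein paralog, was at 20.1, 33.0 and 15.7 TPM in HCT15 controls, against 102, 86.2 and 99.2 TPM in HCT116 controls. It was lower in every HCT15 control, by -2.08 ± 0.22 on the log2 scale (SE; limma, adjusted p = 6.97e-06). Because RPS27L and RPS27 are near copies, how reads were shared between them makes its level uncertain.

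**Figure D3:**
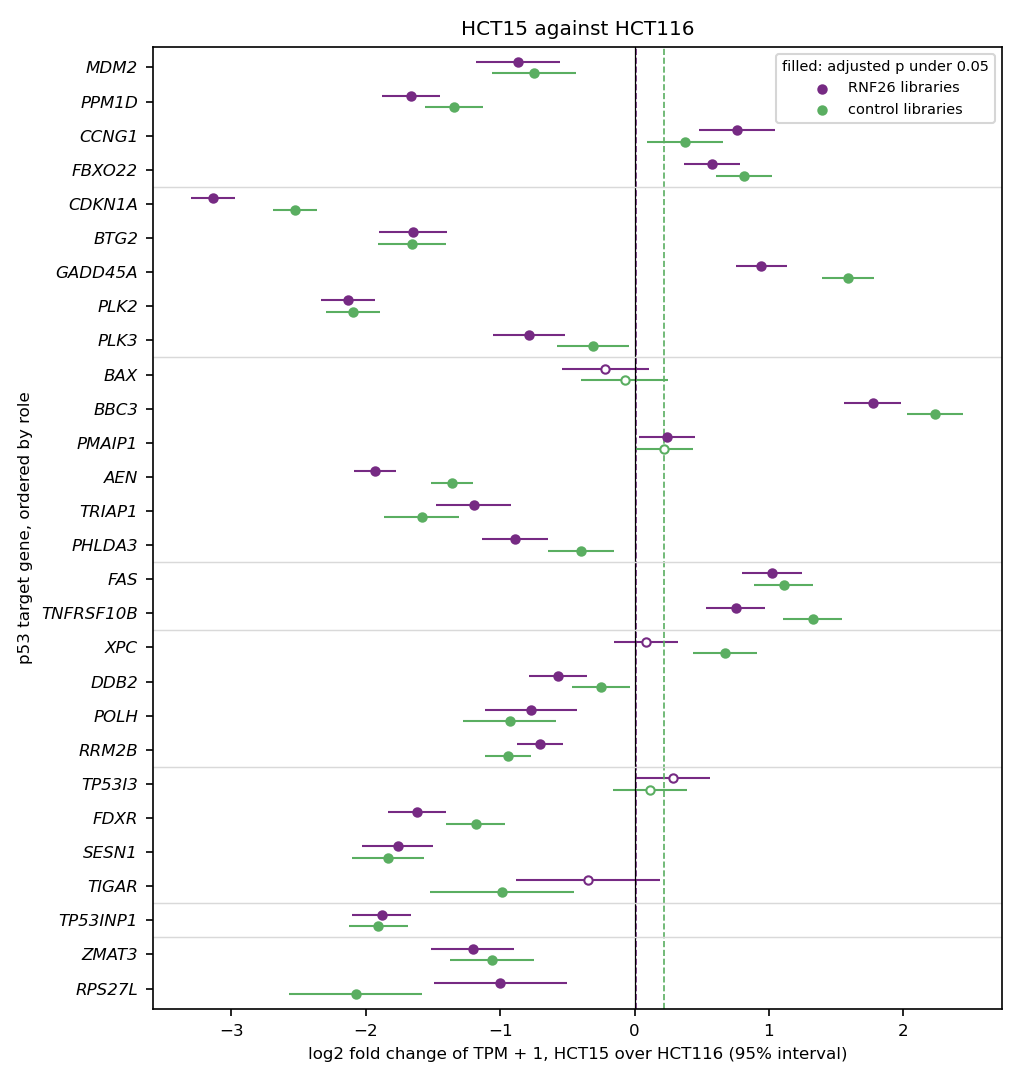
Points give the log2 fold change of TPM + 1, HCT15 over HCT116, with its 95% interval, for the 28 tested p53 targets in RNF26 cells (purple) and control cells (green). Filled points passed adjusted p under 0.05 (limma), the dashed lines mark the median of all genes in each comparison (0.01 and 0.22), and most points lie left of them, with CDKN1A at -3.14 and -2.53.

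The 7 genes with a half-site in their promoter window held 6 that were lower and 1, FAS, that was higher in HCT15 controls. The 17 genes whose windows held none comprised 9 lower and 3 higher genes, 3 that did not pass and the 2 not tested. Of all tested genes 26.0% were lower and 43.6% higher in that comparison. Calls among the other genes with a half-site were not counted. These are descriptions of small sets, and a tie between half-site and direction was not tested.

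A pair of further lists shows the surroundings of the 30 genes. Of 49 tested further direct p53 targets, 19 were lower and 23 higher in HCT15 controls, with a median log2 fold change of 0.20 beside 0.22 over all genes. The 4 with the smallest p were KITLG, the ligand of the KIT receptor, at 3.45 TPM in HCT15 controls against 254 TPM in HCT116 controls (log2 fold change -5.85), the serpin SERPINB5 (-3.43), the sestrin SESN2 (2.61) and the desmosomal gene PERP (1.33). Of 27 tested regulators and relatives of p53, 12 were higher and 3 lower, with a median of 0.13. CDKN2A, of whose products ARF inhibits MDM2, averaged 0.65 ± 0.236 TPM in HCT15 controls and 52.2 ± 2.55 TPM in HCT116 controls, a log2 fold change of -5.02 (limma, adjusted p = 2.81e-10). It reached 1 TPM in 1 of the 6 HCT15 libraries and so entered the test through HCT116, where it is high. The CDKN2A value is for the whole gene and does not show how much of it is ARF mRNA. SIRT1, a deacetylase of p53, was higher by 0.74 and PPP1R13L, the inhibitor iASPP, by 1.28. Between the RNF26 cells the further targets had 18 lower and 19 higher, with a median of 0.01. The regulators had 12 lower and 6 higher, with a median of -0.10. In that comparison 33.8% of all tested genes were lower and 34.1% higher, with a median of 0.01. Between the controls 26.0% of all tested genes were lower and 43.6% higher.

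In HCT15, RNF26 overexpression went with lower CDKN1A, AEN, GADD45A, TNFRSF10B and PPM1D, and with higher RPS27L. A total of 11 of the 28 tested targets were lower in RNF26 cells (39.3%), near the 31.2% of all tested genes that were lower (limma, adjusted p under 0.05). Another 3 were higher (10.7%), against 5.39% of all tested genes. The median log2 fold change of the 28 was -0.17, as was that of all tested genes. A median-ratio scaling that put the median of all genes at 0.00 gave 6 higher and 9 lower targets, quantile normalization 6 and 9, and a GC and length correction 4 and 5. Leaving out the mitochondrial and ribosomal protein genes gave 5 higher and 11 lower. Over all tested genes the split of 840 higher and 4857 lower became 2242 and 2600, 2275 and 2521, 1767 and 2406, and 1424 and 3435 under the same 4 settings. Without HCT15 control replicate 3 the targets split into 1 higher and 12 lower and all tested genes into 653 higher and 4485 lower. By role, calls as lower took in 3 of 5 cell cycle genes, 3 of 6 genes of mitochondrial apoptosis, 2 of 4 repair genes and 1 each of the feedback, death receptor and redox genes. Without overlap between the groups 11 of the 28 were lower, against 35.9% of all tested genes, and 2 (RPS27L and TIGAR) were higher, against 7.23%. The 5 falls of CDKN1A, AEN, GADD45A, TNFRSF10B and PPM1D were called under the main settings and all 24 alternatives.

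CDKN1A was at 13.9, 13.5 and 14.4 TPM in HCT15 RNF26 cells, against 23.4, 27.2 and 22.1 TPM in HCT15 controls. The groups did not overlap, and CDKN1A fell by 0.75 on the log2 scale (SE 0.07; limma, adjusted p = 5.99e-05), or by 0.38 with the GC and length correction. AEN was at 5.75, 5.99 and 6.65 TPM in HCT15 RNF26 cells, against 9.97, 9.53 and 9.70 TPM in HCT15 controls, a log2 fold change of -0.59 ± 0.07 (SE; limma, adjusted p = 0.000160). Each RNF26 library lay below each control, and the corrected value was -0.19. GADD45A was at 65.2, 74.4 and 70.7 TPM in HCT15 RNF26 cells, against 115, 111 and 93.9 TPM in HCT15 controls, a fold change of -0.60 ± 0.09 (SE; limma, adjusted p = 0.000463), or -0.26 corrected for GC and length. TNFRSF10B was at 55.5, 70.1 and 62.9 TPM in HCT15 RNF26 cells, against 93.05, 95.6 and 93.9 TPM in HCT15 controls, a fold change of -0.58 ± 0.10 (SE; limma, adjusted p = 0.00112), or -0.34 corrected. Neither gene overlapped between the cells. Between the RNF26 cells of the lines GADD45A was higher in HCT15 by 0.94 and TNFRSF10B by 0.75.

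BBC3 was at 22.6, 23.0 and 24.0 TPM in HCT15 RNF26 cells, against 34.8, 35.2 and 33.6 TPM in HCT15 controls. It was lower in all 3, by -0.56 ± 0.10 on the log2 scale (SE; limma, adjusted p = 0.00119), and was not called with the GC and length correction (-0.12, adjusted p = 0.220). PPM1D averaged 3.43 ± 0.212 TPM in HCT15 RNF26 cells and 5.13 ± 0.522 TPM in HCT15 controls, a fold change of -0.47, which was -0.29 with the correction or median-ratio scaling and -0.25 with quantile normalization. The falls of FDXR (-0.54), PLK3 (-0.60), DDB2 (-0.51), XPC (-0.49) and PHLDA3 (-0.46) had adjusted p between 0.00154 and 0.00806 (limma), and each lost its call with the GC and length correction. XPC and PHLDA3 also lost it with median-ratio scaling (-0.28 and -0.27) and quantile normalization (-0.25 and -0.21).

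The 3 rises were RPS27L, TRIAP1 and CCNG1. RPS27L was at 34.7, 54.4 and 44.8 TPM in HCT15 RNF26 cells, against 20.1, 33.0 and 15.7 TPM in HCT15 controls. The lowest RNF26 library lay just above the highest control, and the log2 fold change was 0.97 ± 0.22 (SE; limma, adjusted p = 0.00608), which missed the threshold in a fit of the HCT15 libraries alone (adjusted p = 0.0687). RPS27L was called in 23 of 24 alternatives, among them the one that left out mitochondrial and ribosomal protein genes. The ribosomal protein share of the same libraries was 26.3% to 27.5%, against 17.5% to 24.3% in HCT15 controls. Its part in the RPS27L result was not tested further. TRIAP1 was at 28.2, 29.95 and 23.5 TPM in HCT15 RNF26 cells, against 20.2, 24.7 and 16.4 TPM in HCT15 controls, with overlap. Its rise of 0.41 (limma, adjusted p = 0.0267) was not called without HCT15 control replicates 1 or 3 or HCT15 RNF26 replicates 1 or 2 (0.27 to 0.41, adjusted p up to 0.0894). The TRIAP1 call was also lost in a fit of the HCT15 libraries alone and with no filter (limma, adjusted p of 0.138 and 0.0682). The rise of CCNG1 was 0.35 (limma, adjusted p = 0.0497), with overlapping groups, and was called in 9 of 24 alternatives. It was lost without any single library other than HCT15 control replicate 2 or HCT15 RNF26 replicate 3, with adjusted p up to 0.167.

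The remaining 14 tested targets did not pass in HCT15. MDM2 was at 29.2, 42.05 and 26.7 TPM in HCT15 RNF26 cells, against 28.05, 35.7 and 33.1 TPM in HCT15 controls. The groups overlapped, with a log2 fold change of -0.00 and an interval of -0.32 to 0.31 (95%). PLK2 (-0.19), BTG2 (-0.15), FAS (-0.12), SESN1 (0.04), TP53INP1 (0.05) and ZMAT3 (-0.01) had intervals that reached 0. Some calls appeared when 1 library was left out. BAX (-0.50) was called without HCT15 control replicate 3, FBXO22 (-0.33), PLK2 (-0.30) and TP53I3 (0.35) without HCT15 control replicate 2, and RRM2B (0.24) and TIGAR (0.94) without HCT15 RNF26 replicate 3. TIGAR was uneven in HCT15 RNF26 cells, at 3.18, 6.63 and 2.08 TPM, against 2.01, 2.01 and 1.80 TPM in HCT15 controls. All 3 lay above the controls, 1 of them barely, and the log2 fold change of 0.65 ± 0.24 missed the threshold (SE; limma, adjusted p = 0.0571). The lower TIGAR of HCT15 was likewise not called between the RNF26 cells of the lines (-0.35), except without HCT15 RNF26 replicate 2 (-0.71, adjusted p = 0.00065). RRM2B, TIGAR and TP53I3 passed as higher with median-ratio scaling (0.38, 0.80 and 0.43) and with quantile normalization (0.44, 0.77 and 0.50), and TIGAR and TP53I3 with the GC and length correction (0.75 and 0.54). TIGAR also passed with the filter set in each line (limma, adjusted p = 0.0436).

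MDM4 averaged 7.16 ± 1.73 TPM in HCT15 RNF26 cells and 8.61 ± 1.53 TPM in HCT15 controls, a difference of -0.24 (limma, adjusted p = 0.248) that passed without HCT15 RNF26 replicate 2 (-0.41, adjusted p = 0.0407). Of the 27 tested regulators and relatives 15 were lower and 2 higher, against 31.2% and 5.39% of all tested genes. Their median was -0.34 beside -0.17 over all genes. The 4 with the smallest p were the p53 ubiquitin ligase HUWE1 (-0.69), the DNA-dependent kinase PRKDC (-0.74), the acetyltransferase KAT5 (-0.56) and the p53 relative TP73 (-0.84). Of the 49 further targets 24 were lower and 4 higher, with a median of -0.25, beside the same shares of all tested genes. Neither list was counted under the alternative settings. GDF15, a secreted stress cytokine, averaged 147 ± 10.1 TPM in HCT15 RNF26 cells and 316 ± 32.0 TPM in HCT15 controls, a fold change of -1.10 (limma, adjusted p = 6.01e-05). PLXNB2 (-1.18), EPHA2 (-1.06) and SESN2 (-1.08) had the 3 smallest p. The epithelial markers VIL1 (-1.59) and CDX2 (-1.37) were lower in the same libraries. The sum of the epithelial marker list was 3884 to 4069 TPM in HCT15 RNF26 cells, against 4243 to 4860 TPM in HCT15 controls, and its part in the p53 target results was not tested.

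**Figure D4:**
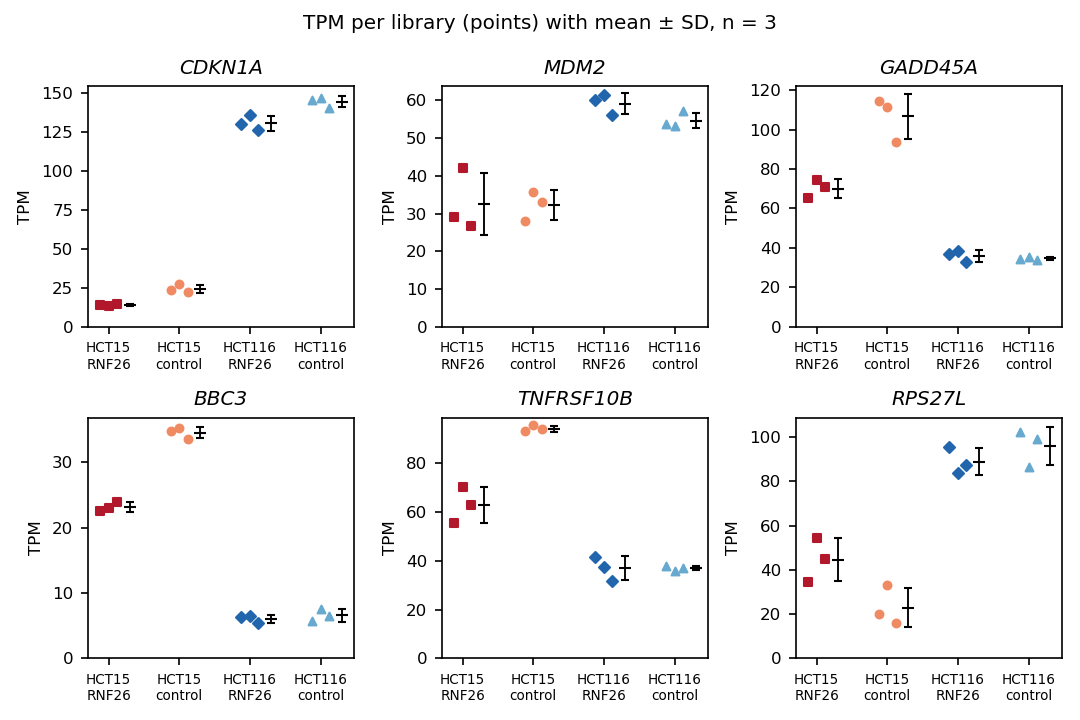
Points are the 12 libraries, with the mean and SD of each group (n = 3) beside them in black, on linear TPM axes that start at 0, for 6 of the p53 targets. CDKN1A was 5.93 times lower in HCT15 than in HCT116 controls and lower again in HCT15 RNF26 cells, whereas GADD45A, BBC3 and TNFRSF10B were highest in HCT15 controls.

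In HCT116, whose RNF26 level rose most, none of the 28 targets passed the test (0.00642% of all tested genes were higher and 0.00% lower by limma). None had an unadjusted p under 0.05, and none was called in any alternative that tested it. The log2 fold changes ran from -0.19 to 0.13, with a median of -0.03 beside 0.01 over all genes. CDKN1A was at 129.95, 135 and 126 TPM in HCT116 RNF26 cells, against 145.45, 146.45 and 139.90 TPM in HCT116 controls. All 3 lay below the controls, but the difference of -0.14 had an interval of -0.30 to 0.02 (95%). BTG2 (-0.15), PLK2 (-0.16) and BAX (-0.19) were also below the controls without overlap, so that 4 of 28 (14.3%) were lower without overlap against 5.56% of all tested genes, and 0 were higher against 7.25%. For BAX the groups barely missed overlap, at 52.61 TPM in the highest HCT116 RNF26 library and 52.62 TPM in the lowest HCT116 control. MDM2 was at 60.1, 61.3 and 56.0 TPM in HCT116 RNF26 cells, against 53.7, 53.2 and 57.1 TPM in HCT116 controls, with overlap and a difference of 0.11. GADD45A was at 36.7, 38.5 and 32.7 TPM in HCT116 RNF26 cells, against 34.6, 35.3 and 34.1 TPM in HCT116 controls. BBC3 was at 6.35, 6.54 and 5.39 TPM in HCT116 RNF26 cells, against 5.71, 7.6 and 6.45 TPM in HCT116 controls. The groups overlapped for both genes. RPS27L was at 95.65, 83.5 and 87.4 TPM in HCT116 RNF26 cells, against 102, 86.2 and 99.2 TPM in HCT116 controls, again with overlap. The further targets and the regulators held no called gene either, and 6 of 49 and 1 of 27 of them had an unadjusted p under 0.05, among them GDF15 (-0.33, unadjusted p = 0.0107) and the coactivator EP300 (0.40, unadjusted p = 0.0208), both by limma. The share of all tested genes with an unadjusted p under 0.05 was not counted, so these counts have no background beside them.

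**Figure D5:**
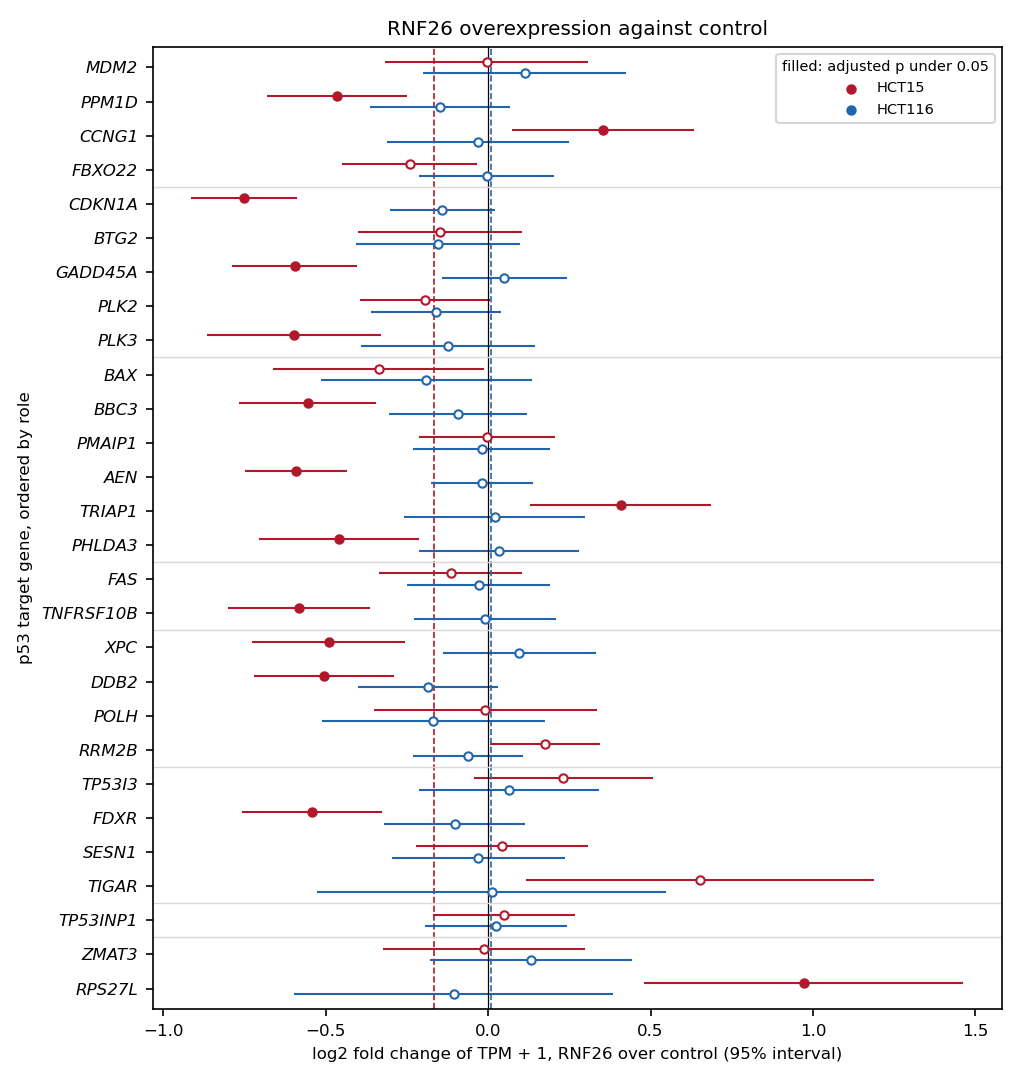
Points give the log2 fold change of TPM + 1, RNF26 over control, with its 95% interval, for the 28 tested p53 targets in HCT15 (red) and HCT116 (blue). Filled points passed adjusted p under 0.05 (limma), 11 lower and 3 higher in HCT15 and 0 in HCT116, and the dashed lines mark the median of all genes (-0.17 in HCT15 and 0.01 in HCT116).

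The RNF26 effects of the lines were also set against each other directly. The effect in HCT15 minus that in HCT116 was below 0 for 8 of the 28 targets (limma, adjusted p under 0.05; 18.7% of all tested genes) and above 0 for 1, RPS27L (1.80% of all tested genes). The 8 were GADD45A (-0.64 ± 0.12, SE), CDKN1A (-0.61), XPC (-0.59), AEN (-0.57), TNFRSF10B (-0.57), PHLDA3 (-0.49), BBC3 (-0.46) and FDXR (-0.44). The split of 1 above and 8 below 0 became 4 and 3 with median-ratio scaling, 3 and 2 with quantile normalization and 1 and 1 with the GC and length correction, while the 281 and 2909 of all tested genes became 934 and 1146, 856 and 1076, and 629 and 1013. GADD45A was called in all 23 alternatives (limma, adjusted p = 0.00611). CDKN1A, AEN and TNFRSF10B were called without each single library and lost their calls with the GC and length correction (-0.25, -0.19 and -0.33). CDKN1A and AEN also lost theirs with quantile normalization (limma, adjusted p = 0.0528 and 0.0523), and TNFRSF10B with median-ratio scaling (adjusted p = 0.0629). BBC3, FDXR, PHLDA3 and RPS27L each lost theirs without any single one of 9 libraries of both lines and conditions (adjusted p up to 0.112). XPC lost its call without any of 4 (HCT116 RNF26 replicates 1 and 2, HCT15 control replicate 1 and HCT15 RNF26 replicate 1), with adjusted p up to 0.0525. BBC3, FDXR, PHLDA3 and XPC also lost theirs with median-ratio scaling, quantile normalization and removal of mitochondrial and ribosomal protein genes. The GC and length correction removed these calls too, leaving -0.05, -0.02, -0.12 and -0.37 (limma, adjusted p of 0.765, 0.915, 0.587 and 0.125). Leaving out 1 library brought in PLK3 and DDB2 (-0.59 and -0.43, without HCT116 RNF26 replicate 3), CCNG1 and TRIAP1 (0.54 and 0.53, without HCT15 control replicate 2) and TIGAR (0.93, without HCT15 RNF26 replicate 3). MDM2 had a difference of -0.12 with an interval of -0.56 to 0.33 (95%).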

How the data were processed

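The libraries were made, per the labels' protocols, from TRIzol-extracted RNA by poly(A) selection with a stranded kit and sequenced with paired ends. The authors deposited 1 table of TPM values for the 12 libraries. Per the submitters' processing notes it was made with fastp, HISAT2, StringTie and RSEM on GRCh38. Their versions and roles, the annotation and the use of strand are not stated there. Over the 30 genes 17 are overlapped by a gene on the other strand and 6 by one on the same strand (GENCODE 29), so their levels are less certain.

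Groups and replicate numbers came from the sample titles. Tests used log2(TPM + 1) in R 4.3.3 with limma 3.58.1, in 1 fit of 4 group means (eBayes with trend, 8 residual degrees of freedom, prior 3.09) over the 15584 genes with at least 1 TPM in at least 3 libraries. Tests were two-sided, with Benjamini-Hochberg adjustment over all of these genes, and 0.05 was the threshold. The procedure was tested on simulated data. No count test was run, since TPM keeps no depth. No library repeated another.

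The genes, lists and tests were chosen with earlier results of these data known. Named were all 30 targets, MDM4, RNF26, and of each further list up to 4 genes with the smallest p in a comparison; VIL1 in HCT116 was named after its values were seen. Of the genes so chosen 1 is not reported here. Alternatives were pseudocounts of 0.1 and 5, no filter or one of 5 TPM, median-ratio scaling over 7524 genes, quantile normalization, TPM rescaled without mitochondrial and ribosomal protein genes, a GC and length correction (95.3% of tested genes), a fit of 2 groups alone, other eBayes settings, a replicate block and each library left out. A filter of 1 TPM in 3 libraries of each line was added after the data were seen.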

Additional observations from a re-analysis of the deposited data

Results flagged for a closer look

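For 9 of the 28 tested p53 targets the RNF26 effect differed between HCT15 and HCT116 by limma's test of the difference (adjusted p under 0.05), 8 below 0 and 1 above 0, where 18.7% and 1.80% of all tested genes did so. With median-ratio scaling 3 were below and 4 above 0, with quantile normalization 2 and 3, and with the GC and length correction 1 and 1. The difference, HCT15 minus HCT116 on the log2 scale, was -0.61 for CDKN1A, -0.64 for GADD45A, -0.46 for BBC3, -0.57 for AEN, -0.49 for PHLDA3, -0.57 for TNFRSF10B, -0.59 for XPC, -0.44 for FDXR and 1.08 for RPS27L. Over all tested genes the same difference had a median of -0.18. RNF26 itself reached 54.2 TPM in HCT15 RNF26 cells and 295.8 TPM in HCT116 RNF26 cells, so the lines were not compared at 1 RNF26 level.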

How the results depend on the processing

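Of the 25 targets called between the control lines 22 were called under every alternative that tested them, as were 23 of the 24 called between the RNF26 lines and 5 of the 14 called in HCT15; the 5 TPM filter did not test TIGAR, TP53INP1 and ZMAT3. No called value changed sign. Targets higher in HCT15 RNF26 cells, 3 in the report, numbered 1 with no filter, 6 with median-ratio scaling or quantile normalization, 5 after removal of mitochondrial and ribosomal protein genes, 0 in a fit of those 2 groups alone and 1 to 5 without single libraries. The 11 lower ones became 5 with the GC and length correction. For the difference of the RNF26 effects the 1 higher target became 0 with no filter, 4 with median-ratio scaling, 3 with quantile normalization and 0 to 3 without single libraries. The 8 lower ones became 5 with no filter, 3 with median-ratio scaling, 2 with quantile normalization, 4 after that removal, 1 with the GC and length correction and 4 to 10 without single libraries. The causes were not tested.

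Same-numbered libraries did not deviate together (r of -0.05 to 0.15 over 18 pairs, 1 of them over 0.1), so the numbers were not taken to pair the libraries. With the replicate number as a block the counts of higher and lower targets were 8 and 17 between the control lines, 7 and 17 between the RNF26 lines, 3 and 11 in HCT15, 0 and 0 in HCT116, and 1 and 7 for the difference of effects. Unknown depth limits what can be said of low genes such as TP53INP1, ZMAT3 and SESN1, and 3 libraries per group limit all values.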
